A study of Mus musculus with 16 samples.

Results

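The helper lineage transcription factors described here are Tbx21, Eomes, Gata3, Rora, Maf, Runx1 and Runx3, 7 of the 56748 genes in the expression tables. They were chosen by gene name, and each symbol matched a single row in both tables. All 7 passed the filter on low counts in every comparison. RNA-Seq was performed on memory CD4+ T cells sorted from the spleen (a CD4+CD25low/-CD44high gate) in 16 samples, 4 in each of 4 groups. In the HP1α line, the KO mice were Hp1a-/-, obtained by excision of a floxed Hp1a allele with CMV-cre, which acts in all tissues, and their WT littermates were Hp1a+/+. In the HP1γ line, the mice of both groups were homozygous for a floxed Hp1g allele and only the KO mice carried Cd4-cre, which acts from the thymic stage at which CD4 is expressed. Cre and the loss of HP1γ therefore cannot be told apart in that line. According to the methods, the mice were young adult, sex-matched littermates on a mixed 129/Sv and C57BL/6 background. None of the sources used here states that the replicates came from separate animals, so p-values measure the spread between these samples, which may be technical.

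HP1α (encoded by Cbx5) and HP1γ (encoded by Cbx3) are heterochromatin proteins that bind methylated lysine 9 of histone H3. CD4+ T cells become helper subsets under the control of lineage factors. T-bet (Tbx21) and the related T-box factor Eomes drive interferon-γ and cytotoxic genes in Th1 cells, GATA-3 drives the Th2 cytokine genes, and RORα (Rora) acts with RORγt in Th17 cells and is also abundant in type 2 innate lymphoid cells. c-Maf (Maf) promotes IL-10, IL-21 and IL-4 expression in several subsets. Runx1 and Runx3 bind DNA with the shared partner Cbfβ, and Runx3 cooperates with T-bet and silences Cd4 in cytotoxic cells.

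The sequencing depth was similar in all groups, with 26694045 to 40199637 counts assigned to genes per sample (median 32360727), of which the 7 factors took 0.119% to 0.16%. Of the targeted genes, Cbx3 was at 45.9 to 50.2 CPM in HP1γ KO and at 73.4 to 92.4 CPM in HP1γ WT (log2 fold change -0.82, adjusted p = 0.0015 by edgeR). CPM are counts scaled to the library total after TMM normalization, a correction for differences in RNA composition. Cbx5 was at 23.0 to 29.0 CPM in HP1α KO and at 33.8 to 54.0 CPM in HP1α WT, but did not pass the test over all genes (log2 fold change -0.58, adjusted p = 0.946 by edgeR). These are RNA values of memory cells. For protein, the authors reported by western blot that naive CD4+ T cells of HP1α KO mice lacked HP1α completely. They reported a nearly complete loss of HP1γ in naive cells of HP1γ KO mice. Cd44, a marker of the gate, was at 259 to 377 CPM. Among the markers of other cells, Cd8a did not exceed 7.39 CPM and Ncr1 0.379 CPM, whereas Ighm was at 253 to 712 CPM and Foxp3, the factor of regulatory T cells, at 57.6 to 164 CPM. The summed level of 3 erythroid markers varied most, at 20.5 to 114 CPM in HP1α KO and 10.3 to 328 CPM in HP1α WT. It was 51.6 to 737 CPM in HP1γ KO and 28.8 to 323 CPM in HP1γ WT. Siglech, a myeloid marker, reached 110 CPM in HP1γ KO. The part of these cells in the values of the factors was not tested. In bulk samples, fewer cells of a type and less RNA per cell cannot be told apart.

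On the GRCm39 build, Eomes (chr9:118307280-118315200) and Rora (chr9:68561068-69295528) lie on the same chromosome, and Rora is the longest of the 7 genes at 734461 bp. Tbx21 lies at chr11:96988897-97006158, Gata3 at chr2:9861889-9894845, Maf at chr8:116409632-116434579, Runx1 at chr16:92398354-92623037 and Runx3 at chr4:134847952-134905301. Genes of the annotation overlap 6 of the 7, all but Tbx21, and those in the expression tables held at most 0.476% of the counts of the factor they overlap.

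The windows of 300 bases around the start sites of the members whose promoters carry a shared element, Runx1 and Runx3, and of the members that differed between groups, Eomes and Rora, are printed below, 5′ to 3′. The sequences are those of RefSeq, taken from a table of the GRCm38.p6 build that held 6 of the 7 members (Maf had no entry), and each window was found once, without mismatch, on its GRCm39 chromosome. The Runx1 distal window lies at chr16:92622913-92623212 on the minus strand, the Runx3 distal window at chr4:134847706-134848005, the Eomes window at chr9:118307007-118307306 and the Rora window at chr9:68560818-68561117, the last 3 on the plus strand. Capitals mark the Runx consensus ACCACA.
Runx1 distal: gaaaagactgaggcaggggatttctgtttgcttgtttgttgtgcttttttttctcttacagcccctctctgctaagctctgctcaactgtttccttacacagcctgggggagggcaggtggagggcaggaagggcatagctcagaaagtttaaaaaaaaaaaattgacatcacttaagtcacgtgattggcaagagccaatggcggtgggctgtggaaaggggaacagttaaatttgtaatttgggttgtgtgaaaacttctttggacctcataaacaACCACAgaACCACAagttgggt
Runx3 distal: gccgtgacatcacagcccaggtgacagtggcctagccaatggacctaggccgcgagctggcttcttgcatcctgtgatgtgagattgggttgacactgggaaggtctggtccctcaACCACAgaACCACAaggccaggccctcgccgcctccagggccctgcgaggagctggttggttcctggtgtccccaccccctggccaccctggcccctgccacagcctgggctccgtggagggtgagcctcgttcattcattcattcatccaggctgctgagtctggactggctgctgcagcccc
Eomes: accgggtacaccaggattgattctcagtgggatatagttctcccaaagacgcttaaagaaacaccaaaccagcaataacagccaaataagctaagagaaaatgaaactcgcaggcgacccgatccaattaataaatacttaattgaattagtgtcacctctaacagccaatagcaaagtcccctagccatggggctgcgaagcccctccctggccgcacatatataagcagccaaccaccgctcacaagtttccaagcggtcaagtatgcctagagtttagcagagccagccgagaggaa
Rora: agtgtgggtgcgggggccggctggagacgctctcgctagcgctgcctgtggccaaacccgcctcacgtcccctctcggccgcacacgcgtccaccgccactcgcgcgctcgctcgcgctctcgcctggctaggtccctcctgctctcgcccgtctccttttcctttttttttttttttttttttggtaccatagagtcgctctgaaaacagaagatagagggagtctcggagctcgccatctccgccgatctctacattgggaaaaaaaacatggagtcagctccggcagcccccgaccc
The distal windows of Runx1 and Runx3 share an element of 18 bases, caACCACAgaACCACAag, with 2 copies of the consensus, at chr16:92622919-92622936 and chr4:134847820-134847837. The element was present in 4 of 32851 promoters (0.0122%), those of Runx1, Runx2, Runx3 and Gm16225. The letters ACCACA were searched on both strands (TGTGGT on the other strand), and 16.8% of all promoters of the same length held them at least once and 1.81% held 2 or more copies. They were not found in the windows of Eomes, Rora, Gata3 or Tbx21, nor in the proximal windows of the Runx genes. The T-box letters AGGTGT, the letters AGATAA bound by GATA factors and the letters AGGTCA bound by ROR factors had no match in any member's window. The letters TGCTGA of the Maf recognition element had 1 match each in the windows of Gata3 and of distal Runx3. All were searched on both strands, and 13.7%, 11.2%, 16.3% and 19.5% of all promoters held them, in that order. These matches are descriptions of letters and not binding sites, and the motifs were chosen after the sequences had been seen. The Rora window belongs to the longest transcript, and the next start of a protein-coding transcript lies 635896 bp downstream. The counts per gene do not separate the starts.

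At the level of the transcript, 6 of the 7 factors lay close together and Eomes lay far below them. In TPM, a unit corrected for transcript length, the mean over 16 samples was 127 for Runx3, 118 for Runx1, 99.1 for Gata3, 97.8 for Maf, 96.4 for Rora, 75.9 for Tbx21 and 9.14 for Eomes. Eomes was below Tbx21, its T-box relative, in 16 of 16 samples (exact sign-flip permutation test, two-sided, adjusted p over 6 neighbour pairs = 9.16e-05). Runx1 was above Gata3 in 16 of 16 samples (exact permutation test, adjusted p = 9.16e-05). That order rests on the correction for length, because without it the mean was 162 CPM for Runx1 and 169 CPM for Gata3. The p-value does not measure the uncertainty of the assigned length. The other neighbours in the order did not differ beyond the spread over samples, and the adjusted p for Runx3 over Runx1 was 0.104 (exact permutation test). The position of Rora depended on the line, with 52.4 to 82.9 TPM in the 8 samples of the HP1α line and 84.0 to 160 TPM in the 8 samples of the HP1γ line. By mean TPM it ranked 6 of 7 in both HP1α groups and 2 of 7 in both HP1γ groups. The tests of the neighbour pairs with Rora therefore mixed different orders and cannot describe either line.

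**Figure D1:**
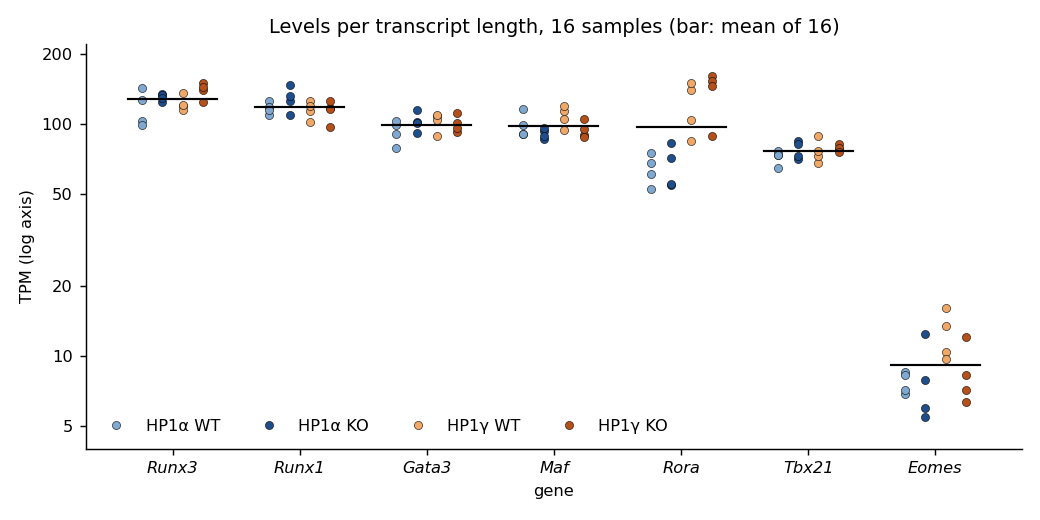
TPM (log axis) of the 7 factors in each of the 16 samples, coloured by group, with a bar at the mean of 16. Eomes lies at 5.50 to 16.1 TPM, and Rora is the only factor whose samples separate by line.

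None of the 7 factors passed the test in HP1α KO memory cells. Normalized read counts of Tbx21 were 107.3, 109.8, 136 and 123 CPM in HP1α KO and 111, 95.5, 122 and 113 CPM in HP1α WT. The groups thus overlapped, and the log2 fold change of KO over WT was 0.11 (95% confidence interval -0.093 to 0.32). The log2 fold changes of Tbx21, Eomes, Gata3, Runx1 and Runx3 were positive and those of Rora and Maf negative, all between 0.036 and 0.11 in size. The smallest adjusted p was 0.946 (edgeR quasi-likelihood test with Benjamini-Hochberg adjustment over 14881 genes). With edgeR, 0 of 7 factors were called at an adjusted p under 0.05, against a background of 0% of the genes tested, and 0 of 7 had an unadjusted p under 0.05, against 4.27%. DESeq2 called none of the 7 either. Eomes was the least well determined, because HP1α KO held values from 11.6 to 25.5 CPM (16.3, 11.6, 13.1 and 25.5) around the narrower HP1α WT values of 14.7, 17.8, 15.4 and 16.9 CPM. Its interval, -0.43 to 0.51 on the log2 scale, was the widest of the 7.

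In the HP1γ line, no factor passed the adjusted threshold, and Eomes and Maf had an unadjusted p under 0.05, both with lower values in KO. Eomes was at 13.4, 24.4, 17.3 and 14.3 CPM in HP1γ KO and at 23.6, 21.1, 31.3 and 28.1 CPM in HP1γ WT. The groups overlapped through the second KO sample, which lay above 2 of the WT samples. The log2 fold change was -0.57 (SE 0.19, adjusted p = 0.332 by edgeR). Maf was at 277, 306, 293 and 257 CPM in HP1γ KO and at 369.8, 308, 311 and 357 CPM in HP1γ WT. The highest KO value lay just under the lowest WT value, and 7.1% of the genes tested did not overlap between these groups. The log2 fold change was -0.24 (SE 0.081, adjusted p = 0.335 by edgeR), and the exact permutation test gave p = 0.0286, the smallest that 4 samples against 4 allow. With edgeR, 0 of 7 factors were called, against 0.327% of the 14975 genes tested, while 2 of 7 had an unadjusted p under 0.05, against 11.9%. DESeq2 called 0 of 7. Rora varied widely inside both groups, at 632, 579.7, 572 and 336 CPM in KO and 609, 614, 390.3 and 336 CPM in WT. Its log2 fold change was 0.13 with a 95% interval of -0.38 to 0.64. The log2 fold changes of Tbx21, Gata3, Runx1 and Runx3 were between -0.078 and 0.096. Zbtb16, a marker of invariant NKT cells, moved with Eomes and Maf, at 43.3 to 56.3 CPM in HP1γ KO and 60.3 to 99.7 CPM in HP1γ WT, without overlap (log2 fold change -0.55, adjusted p = 0.227 by edgeR). Klrb1c, the other marker of these cells, was at 30.3 to 49.9 CPM in KO and 30.1 to 51.2 CPM in WT. The part of these cells in the Eomes and Maf values was not tested.

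Across the study, Gata3 ranged from 146 to 192 CPM over all 16 samples, with group means from 163 ± 11.7 (HP1α WT) to 177 ± 12.1 CPM (HP1γ WT, SD, n = 4). Runx1 ranged from 145 to 178 CPM, with group means from 154 ± 9.99 (HP1α WT) to 167 ± 7.72 CPM (HP1γ KO, SD, n = 4). Runx3 was within 232 to 236 CPM in the 4 HP1α KO samples and within 188 to 267 CPM in the 4 HP1α WT samples, so that the KO values lay inside the WT range. The coefficient of variation over all 16 samples was 6.16% for Runx1, 7.72% for Gata3, 8.69% for Tbx21, 9.24% for Runx3, 11% for Maf, 30.9% for Eomes and 42.6% for Rora.

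**Figure D2:**
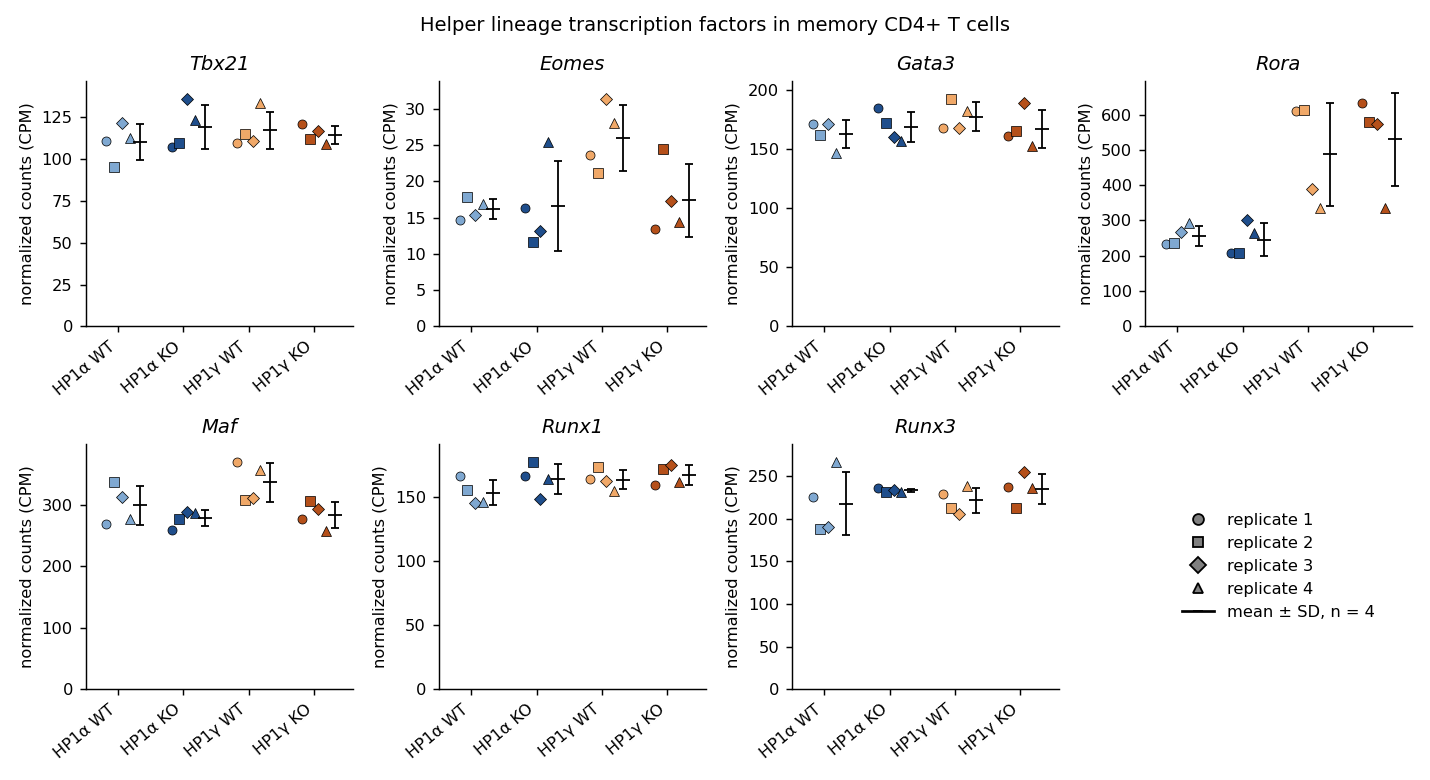
Normalized counts (CPM) of the 7 factors in each replicate, with mean ± SD (n = 4) beside each group, on axes that start at 0. Rora is at 207 to 302 CPM in the HP1α line and 336 to 632 CPM in the HP1γ line, and Eomes is highest in HP1γ WT.

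The loss of HP1α and the loss of HP1γ were also compared with each other in one fit of all 16 samples. None of the 7 factors passed the test of a difference in response, against 0.0507% of the 15776 genes tested (edgeR interaction, 0 of 7 called). No member had an unadjusted p under 0.05, against 9.58% of the genes, and DESeq2 called 0 of 7. The largest difference was that of Eomes, 0.62 on the log2 scale (SE 0.31, adjusted p = 0.547 by edgeR, 95% interval -0.039 to 1.28). The Maf difference was 0.14 (95% interval -0.10 to 0.39), so that a response of Maf particular to one line was not shown.

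The WT mice of the lines differed in Rora and Eomes. Rora was at 234, 235, 266 and 292 CPM in HP1α WT and at 609, 614, 390.3 and 336 CPM in HP1γ WT. All HP1α WT samples were below all HP1γ WT samples, and replicates 1 and 2 of HP1γ WT stood above replicates 3 and 4. The log2 fold change of HP1α WT over HP1γ WT was -0.92 (SE 0.18, adjusted p = 0.0128 by edgeR with Benjamini-Hochberg adjustment), a level 1.90-fold higher in HP1γ WT. The Rora call was lost without replicate 1 of HP1α WT, with a log2 fold change of -0.88 and an adjusted p of 0.0505, and in the fit blocked on replicate number (adjusted p = 0.0618 by edgeR). Eomes was at 14.7, 17.8, 15.4 and 16.9 CPM in HP1α WT and at 23.6, 21.1, 31.3 and 28.1 CPM in HP1γ WT. The groups did not overlap, and the log2 fold change was -0.68 (SE 0.13, adjusted p = 0.0096 by edgeR), a level 1.61-fold higher in HP1γ WT. The Eomes call was lost with limma on log2(TPM + 1) (-0.60, adjusted p = 0.0512) and in the difference of lines over all 16 samples (-0.37, adjusted p = 0.0658 by edgeR). Both members that were called were lower in HP1α WT, 2 of 7 against 8.25% of the 14804 genes tested that were called lower (12.8% in either direction), and 19.5% of the genes did not overlap between these groups. The log2 fold changes of the other 5 factors were between -0.17 (Maf) and -0.026 (Runx3), with the smallest adjusted p at 0.226 for Maf (edgeR). Neither Rora nor Eomes exceeded a log2 fold change of 1 in size, and 1.9% of the genes tested did so with an adjusted p under 0.05. The HP1γ KO comparison and this one share the HP1γ WT samples, which were the highest in Eomes in both.

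The line and anything handled together with it, such as breeding, sorting or sequencing, cannot be told apart in this comparison. Cd44 moved with it, at 259 to 298 CPM in HP1α WT and 337 to 377 CPM in HP1γ WT. Between the KO groups it was at 266 to 300 CPM (HP1α) and 332 to 363 CPM (HP1γ). Zbtb16 differed between the WT groups only, at 44.4 to 55.7 CPM in HP1α WT and 60.3 to 99.7 CPM in HP1γ WT. In the KO groups Zbtb16 overlapped, at 33.2 to 46.3 CPM in HP1α KO and 43.3 to 56.3 CPM in HP1γ KO. Klrb1c, the other of the 2 markers of invariant NKT cells, overlapped, at 34.9 to 55.9 CPM in HP1α WT and 30.1 to 51.2 CPM in HP1γ WT, and so did the sum of both, at 82.8 to 112 CPM and 93.3 to 151 CPM. The summed level of the 6 B cell markers moved the other way, at 351 to 516 CPM in HP1α WT and 263 to 337 CPM in HP1γ WT, and it did not overlap between the KO groups either, at 393 to 736 CPM in HP1α KO and 264 to 374 CPM in HP1γ KO. The part of these cells in the Eomes and Rora differences was not tested. Ncr1, a marker of NK cells, was at or below 0.221 CPM in every WT sample. The summed level of the 5 NK and innate lymphoid markers was 39.2 to 64.8 CPM in HP1α WT and 36.1 to 60.5 CPM in HP1γ WT. Klrb1c, already given above, made up most of that sum. The part of NK cells in the Eomes difference was not tested either.

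Rora differed in the same direction between the KO groups, a comparison added after the data had been seen. Its values, 207, 207, 302 and 266 CPM in HP1α KO, were all below those of HP1γ KO (336 to 632 CPM), and 32.3% of the genes did not overlap between these groups. The log2 fold change of HP1α KO over HP1γ KO was -1.11 (SE 0.19, adjusted p = 0.00316 by edgeR), and 1 of 7 factors was called, and lower, against 32.8% of the 15020 genes tested in either direction and 16.8% called lower. Eomes, by contrast, had a log2 fold change of -0.061 with a 95% interval of -0.62 to 0.50.

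**Figure D3:**
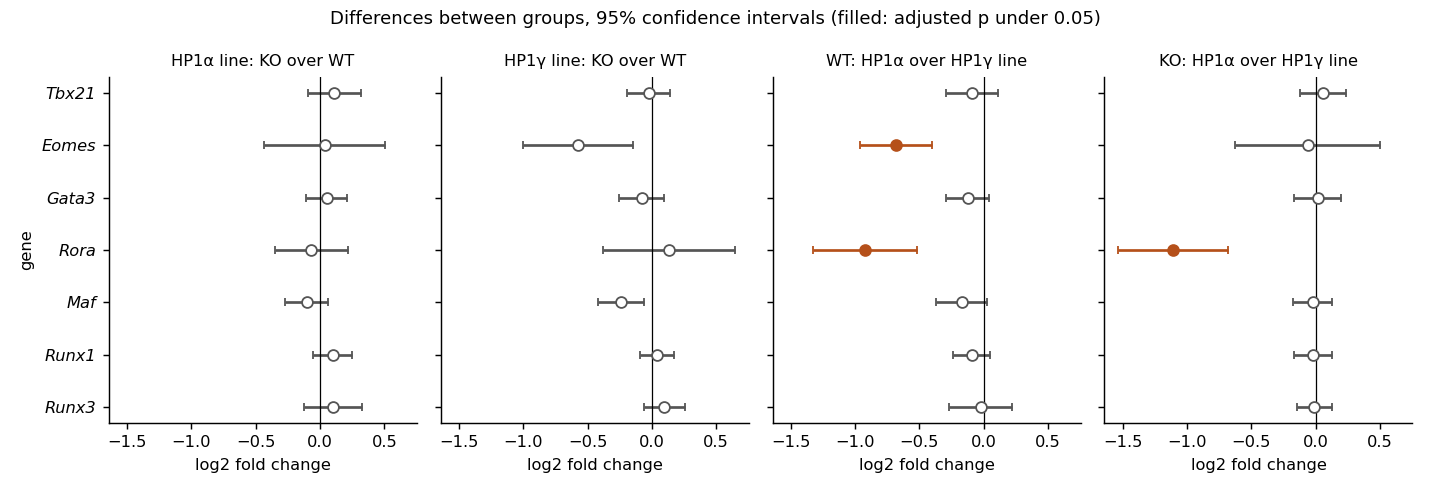
Log2 fold changes of the 7 factors in 4 comparisons (points) with 95% confidence intervals (bars) from edgeR, filled where the adjusted p is under 0.05. Rora (-0.92 and -1.11) is filled in both comparisons between lines, Eomes (-0.68) in that of the WT groups, and no factor in either comparison of KO with WT.

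Within groups, the factors showed no shared deviation that passed correction. Of 21 pairs, 0 had an adjusted p under 0.05 (permutation test within groups, log2 CPM after subtraction of group means, n = 16). The lowest unadjusted p was that of Tbx21 and Runx1, with r = -0.60 (permutation p = 0.0435, adjusted p = 0.722) and rho = -0.62 (permutation p = 0.0335, adjusted p = 0.703), and r was -0.38 without the 2 samples farthest from the median of Tbx21.

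The genes with the pattern most like each factor were identified over 16 samples by the root mean square difference between standardized log2 CPM values, among 15775 other genes. For Rora these were Slc7a1, a cationic amino acid transporter (difference 0.164 SD units), and Thap6 (0.187). Slc7a1 was at 100.4 to 135 CPM in the 8 samples of the HP1α line and at 129.9 to 227 CPM in those of the HP1γ line. For Eomes, Maf, Tbx21, Gata3, Runx1 and Runx3, the nearest gene was at 0.530 (Fam83h), 0.498 (Zdhhc2), 0.642 (Gm50394), 0.688 (Alkbh4), 0.575 (1700023H06Rik) and 0.556 (Rab35) in the same units. The likeness over 16 samples includes the differences between groups and libraries.

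**Figure D4:**
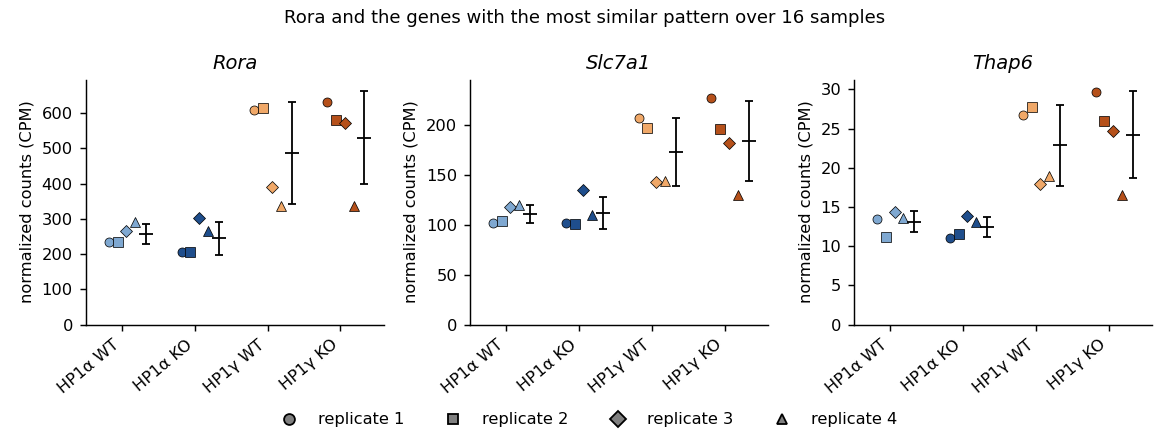
Normalized counts (CPM) of Rora, Slc7a1 and Thap6 in each replicate, with mean ± SD (n = 4) beside each group. In HP1γ KO, replicate 4 is the lowest in all 3 genes, with Rora at 336 CPM.

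Among the 27 partner factors of the lineage regulators, edgeR called 0 in either comparison of KO with WT and 8 between the WT groups, or 29.6% of the list against 12.8% of all genes tested. The list was chosen with earlier results of these data known, so this share is a description and not a test. An unadjusted p under 0.05 was found for 1 of the 27 partners in the HP1α line, against 4.27% of all genes, and for 4 in the HP1γ line, against 11.9%, both near the background. The median log2 fold change of the 27 partners between WT groups was -0.13, against 0.015 for all genes tested. Zbtb7b, which encodes the CD4 lineage factor ThPOK, was higher in HP1α WT (log2 fold change 0.50, adjusted p = 0.0468 by edgeR). Stat3, Stat4, Runx2, Zbtb16, Irf4, Prdm1 and Bhlhe40 were lower. Bhlhe40, a regulator of cytokine production, was at 944, 866, 1044 and 829.98 CPM in HP1α WT and at 2024, 1999, 1538 and 1846 CPM in HP1γ WT. The groups were far apart, and the log2 fold change was -1.01 (SE 0.10, adjusted p = 0.00103 by edgeR). Irf4, which cooperates with BATF in activated T cells, had a log2 fold change of -1.06 (SE 0.17, adjusted p = 0.00569 by edgeR). Runx2, the relative of Runx1 and Runx3, had a log2 fold change of -0.50 (SE 0.091, adjusted p = 0.00932 by edgeR). Between the KO groups, 10 of the 27 partners were called, 5 higher and 5 lower in HP1α KO. That was 37% of the list, against 32.8% of all genes tested. Bhlhe40 (-1.01) and Irf4 (-1.25) were called there too. Stat4, Zbtb16 and Runx2 were not (Runx2 log2 fold change -0.38, adjusted p = 0.0779 by edgeR).

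The known targets of the lineage factors were described in 5 lists, also chosen with earlier results of these data known, so that their shares are descriptions. In HP1α KO, edgeR called 0 genes in each, and 1 of the 19 Th1 and cytotoxic genes and 1 of the 12 genes bound by Runx factors had an unadjusted p under 0.05, against 4.27% of all genes. In HP1γ KO, the only call was Il17rb, the IL-25 receptor subunit of the Th2 list, at 10.8, 10.5, 13.2 and 15.5 CPM in KO and 25.2, 34.2, 19.1 and 28.2 CPM in WT. All KO samples were below all WT samples, and the log2 fold change was -1.08 (adjusted p = 0.039 by edgeR). An unadjusted p under 0.05 was found there for 1 of 19 Th1 and cytotoxic, 3 of 12 Th2, 0 of 11 Th17, 1 of 9 c-Maf dependent and 2 of 12 Runx-bound genes, against 11.9% of all genes. Between the WT groups, where 12.8% of all genes were called, 6 of the 12 Th2 genes tested were called. Rad50 (0.47) was higher in HP1α WT, and Il13 (-1.28), Ccr8 (-1.51), Ptgdr2 (-1.86), Areg (-0.85) and Dennd4a (-0.63) were lower, in log2 fold change. Ptgdr2 was barely detected, with 2 to 5 counts per sample in HP1α WT and 10 to 17 in HP1γ WT, and Il13 was at 0.474 to 0.932 CPM in HP1α WT and 1.09 to 2.83 CPM in HP1γ WT. The median of the Th2 list was -0.64. Among 19 Th1 and cytotoxic genes, Xcl1 (-0.96), Hopx (-0.29) and Fasl (-0.82) were lower (15.8% of the list), and the list's median was -0.026. Of 11 Th17 genes tested, Il17f (-1.69) was lower, at 0.378 to 1.64 CPM in HP1α WT and 1.23 to 4.01 CPM in HP1γ WT, with a median of -0.29. Of 9 genes that depend on c-Maf, Il10 (-1.26) and Icos (-0.48) were lower, with a median of -0.17. Of 12 genes bound by Runx factors, only Zbtb7b, already listed as a partner, was called, with a median of 0.015. The median over all genes tested was 0.015. Between the KO groups, 32.8% of all genes tested were called. The shares there were 31.6% of the Th1 and cytotoxic list, 45.5% of the Th2 list and 18.2% of the Th17 list. They were 33.3% each for the c-Maf dependent and the Runx-bound genes.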

How the data were processed

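RNA-Seq of 16 samples was grouped by line and genotype from the submitters' titles. The treatment field, which mentions a cell transfer, conflicts with the account of the memory cells and was ignored. According to the methods and the submitters' processing notes, the authors ran the nf-core workflow, in which Trim Galore trims the reads, STAR aligns (here to GRCm39) and Salmon estimates gene abundance. The authors deposited estimated counts per gene, without normalization, of which 11.6% were not whole, and TPM, which keeps no depth. The strand setting of the counting was not given in the sources used here.

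Estimated counts were rounded and tested with R 4.3.3 and edgeR 4.0.16 (TMM, filterByExpr with a minimum count of 10, glmQLFit and glmQLFTest, Benjamini-Hochberg adjustment over all genes tested). A call had an adjusted p under 0.05. Each fit of 2 groups held 8 samples and the interaction all 16. DESeq2 1.42.0, limma 3.58.1 on log2(TPM + 1) and log2(TPM + 0.1), other normalizations and filters, a block on replicate number and leaving out each sample were the alternatives. The tests were also run on simulated counts with the same low dispersion for all genes. That is no check for genes that vary as widely within groups as Rora and Eomes. No pair of replicates agreed within sampling noise (24 pairs, smallest chi-square per gene 10.4).

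The text names the 7 members, Cbx5 and Cbx3, the called genes of 6 lists and the 2 genes most like each member. Members and lists were chosen with earlier results of these data known. Gene and start coordinates come from GENCODE on GRCm39, a release other than that of the authors. One further marker of the gate is not reported here.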

Additional observations from a re-analysis of the deposited data

How the results depend on the processing

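Of 511 log2 fold changes of the 7 factors under the alternatives, 476 kept their direction and their side of the threshold, 5 lost their call and 30, none of them called, changed sign. The 2 calls between the WT groups became 0 with the added threshold on size, and 1 each with limma on log2(TPM + 1) (Eomes -0.60, adjusted p = 0.0512), with KO samples in place of WT samples (Eomes -0.061, adjusted p = 0.875) and in the difference of lines over all 16 samples (Eomes -0.37, adjusted p = 0.0658), the last 2 chosen after seeing the data. Whether the replicate numbers pair the samples was not settled. For samples of the same number, the mean correlation was 0.171 in the HP1α line, where single pairs ranged from 0.0806 to 0.271. It was 0.0959 in the HP1γ line and -0.131 between WT groups. In that order, 4, 2 and 0 of 8 samples were closest to their own number. With the number as a block, 1 call was left between the WT groups, with Rora at -0.88 (adjusted p = 0.0618 by edgeR). Eomes in HP1α KO was then at -0.020. Leaving out single samples gave 1 to 2 calls between the WT groups, with 1 only without replicate 1 of HP1α WT (Rora -0.88, adjusted p = 0.0505). Signs changed on the TPM scales, with pseudocounts of 1 and 0.1, for Eomes (-0.019 and -0.028) and Rora (0.034 and 0.035) in HP1α KO, Tbx21 (0.041 and 0.042) and Runx1 (-0.020 and -0.020) in HP1γ KO, Runx1 between WT groups (0.024 and 0.024) and Runx3 in the interaction (-0.018 and -0.018), and with KO in place of WT samples for Tbx21 (0.058) and Gata3 (0.015). Over left-out samples, the ranges that crossed 0 were -0.18 to 0.0078 for Rora in HP1α KO, -0.24 to 0.17 for Eomes in HP1α KO, -0.059 to 0.034 for Tbx21 in HP1γ KO, -0.019 to 0.30 for Rora in HP1γ KO, -0.14 to 0.046 for Runx3 between WT groups and -0.054 to 0.13 for Runx3 in the interaction. Over all genes, edgeR called 0, 49, 1896 and 8 in the HP1α KO, HP1γ KO, WT and interaction tests, DESeq2 5, 252, 2823 and 79, and the block left 577 between WT groups. The cause of these changes was not tested.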

Other observations

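The ratio of counts to TPM, which follows the transcript length that the quantification assigned to a gene, was examined after the data had been seen, relative to the median ratio of the genes with at least 500 counts in every sample. For Runx1, whose transcripts start at promoters 128821 bp apart, it was 0.816 to 0.895 in HP1α KO, 0.847 to 0.886 in HP1α WT, 0.949 to 1.12 in HP1γ KO and 0.865 to 0.993 in HP1γ WT. The HP1γ KO samples were above all samples of the HP1α line but overlapped the HP1γ WT samples, and the WT groups overlapped. The share of all genes that separate in this way was not determined. The ratio of Tbx21, which has 1 annotated transcript, was 0.986 to 1.03 over all 16 samples. Those of Rora and Gata3 also varied between samples, most widely within HP1α WT. Transcripts were not analysed here, and no difference in this ratio was tested.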
